A study of Mus musculus with 81 samples.

Results

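The genes followed here act in the sensing of DNA in the cytosol and in the signalling that runs through STING. There were 7 of them, chosen by symbol from the 54079 genes that every library lists: Tmem173 (which encodes STING), Tbk1, Ikbke, Trex1, Samhd1, Aim2 and Enpp1. RNA-seq counts were read for each in 81 mouse libraries, of which 79 could be placed in 27 groups of 2 or 3 libraries. WT libraries came from mice with floxed H3f3a and H3f3b, the genes of the histone variant H3.3, and without cre. The cKO libraries came from mice of the same floxed alleles that also carried LysM-cre on both copies of its locus, and every double KO carried the cKO alleles as well. All mice were adults on a C57BL/6 background.

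The groups were as follows. Bone marrow cells in culture were taken on days 3, 5 and 7 from WT and cKO mice. Bone marrow-derived macrophages (BMDMs) of day 8 were left untreated or were given interferon-γ (IFNγ) for 12 h, and the cKO groups of this experiment had 2 libraries. Peritoneal macrophages were compared between WT and cKO. A further experiment gave WT and cKO BMDMs no antibody, a control antibody or an antibody that blocks IFNAR1, the receptor chain shared by the type I interferons. The last held WT and cKO BMDMs in 3 sets, together with cKO BMDMs that also lacked Sting (StingKO), Mavs (MavsKO) or Irf7 (Irf7KO), and the labels do not say which set goes with which double KO. In the order of the samples, set 1 stands directly before StingKO, set 2 before MavsKO and set 3 before Irf7KO. LysM-cre sits in Lyz2 and acts in myeloid cells, so the loss of H3.3 cannot be told apart from the loss of Lyz2 or from the presence of cre, since no group carried LysM-cre without the floxed alleles. Whether the 3 libraries of a group came from separate mice is not in the labels, so p-values measure the spread between these libraries.

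In textbook accounts DNA in the cytosol is bound by cGAS, which makes the second messenger cGAMP. cGAMP binds STING on the endoplasmic reticulum, and STING recruits TBK1, with IKKε (the product of Ikbke) as its close relative, to phosphorylate IRF3 and start the transcription of type I interferon. The other members work around this core. TREX1 is an exonuclease that destroys cytosolic DNA, SAMHD1 breaks down deoxynucleotide triphosphates and limits the DNA that stalled forks release, ENPP1 hydrolyses cGAMP outside the cell, and AIM2 is a separate DNA sensor that assembles an inflammasome and activates caspase-1. Several of these genes are themselves interferon-stimulated in macrophages.

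In GRCm38 (mm10) Tbk1 lies between positions 121546455 and 121586787 of chromosome 10 and Ikbke between 131254343 and 131279606 of chromosome 1, both on the minus strand. Trex1 lies between 109057933 and 109059734 of chromosome 9 and Samhd1 between 157097533 and 157135265 of chromosome 2, both on the minus strand. Aim2 is on the plus strand of chromosome 1 between 173350879 and 173466040, and Enpp1 on the minus strand of chromosome 10 between 24637914 and 24712159. Trex1 could not be measured: 100% of its 1147 exon bases in GENCODE M21 are also exon of Atrip on the same strand, and its count was 0 in each of the 81 libraries. The other 6 members passed the filter on low counts in all 5 experiments. Of the exon bases of Ikbke, 2.48% are shared with the antisense genes Gm28913 and Gm28914, which counts without strand cannot separate from it.

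The bases before the start site are shown for Samhd1 and Enpp1, which had the highest rise and the fall under IFNγ, and for Ikbke, which moved in either direction between experiments. RefSeq (GRCm38.p6) gave start sites for 6 of the 7 members, all but Tmem173, which was therefore not searched. The 250 bases before each were searched on both strands for the interferon-stimulated response element that interferon-stimulated genes often carry, spelled as GAAA, any 2 bases and GAAA again. Printed is the part of that window without an annotated exon, 5′ to 3′ on the strand of the gene, and none of it is in capitals because no match was found.
Samhd1, chr2:157135266-157135346, minus strand: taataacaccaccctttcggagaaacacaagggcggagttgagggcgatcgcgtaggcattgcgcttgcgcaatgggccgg
Ikbke, chr1:131279607-131279813, minus strand: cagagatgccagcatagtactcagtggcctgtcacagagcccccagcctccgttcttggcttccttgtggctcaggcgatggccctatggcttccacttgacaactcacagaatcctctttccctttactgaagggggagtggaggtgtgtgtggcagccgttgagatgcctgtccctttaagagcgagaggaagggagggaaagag
Enpp1, chr10:24712160-24712409, minus strand: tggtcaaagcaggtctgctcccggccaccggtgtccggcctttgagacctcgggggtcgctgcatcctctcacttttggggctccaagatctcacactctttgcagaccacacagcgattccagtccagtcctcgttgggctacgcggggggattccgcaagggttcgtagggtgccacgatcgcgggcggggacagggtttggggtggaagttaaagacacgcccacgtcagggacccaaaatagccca
The response element was found in none of the windows of these 6 members, which include Trex1, and in 2.98% of all 32851 promoters of the table. No match says only that these letters are not in this window.

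Counts on genes ranged from 3614967 to 45581528 per library, and the library with the fewest was IFNγ cKO replicate 1 of day 8. Levels are given as CPM, which scales the counts of a gene by the counts on all genes of its library, after TMM scaling. Fold changes were fitted with edgeR on every gene of an experiment at once, the adjustment of p-values covered every tested gene, and a gene is called at an adjusted p under 0.05. H3f3a had group means of 36.4 to 76.4 CPM in WT and 3.25 to 15 CPM in cKO, and Lyz2 had at least 4945 CPM in WT and at most 62.6 CPM in cKO, as group means. H3f3b was lower in every cKO group mean, with 35.2 to 49.8 CPM against 306 to 376 CPM in the antibody experiment but 168 to 329 CPM against 218 to 438 CPM elsewhere. Markers of macrophages were present in every group, with a summed level of 2482 to 11320 CPM over 6 genes, and the markers of large peritoneal macrophages reached 3556 to 4330 CPM in the peritoneal libraries and at most 33.9 CPM in the others.

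Levels of different members are compared per kilobase of exon that no other gene shares (RPKM). In untreated WT BMDMs of day 8 Samhd1 was highest at 21.9 RPKM (mean, n = 3), followed by Tbk1 at 18.7, Tmem173 at 12.0, Aim2 at 9.37, Ikbke at 7.73 and Enpp1 at 2.45 RPKM, and the libraries of neighbours in this order did not overlap. In WT peritoneal macrophages the order of the first 3 was the same, at 28, 26.1 and 18.2 RPKM, but their libraries overlapped, as did those of Ikbke at 9.95 and Aim2 at 8.26 RPKM. In WT cells of day 3 the highest was Tbk1, at 21.6 RPKM, with libraries that overlapped those of Samhd1 at 19 RPKM. Enpp1 was the lowest of the 6 measured members in each of the 12 WT groups. Over these 12 groups, normalized separately in each experiment, the group mean of Tbk1 stayed between 73.0 and 129 CPM, while that of Samhd1 ran from 83.4 to 2078 CPM.

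IFNγ moved each of the 6 measured members in WT BMDMs. All 6 were called, against 40.1% of the 13075 genes tested in this comparison. The receptor-proximal member Tmem173 and the nucleotide-hydrolysing Samhd1 rose most, the kinases and Aim2 rose less, and Enpp1 fell. The median log2 fold change of the members was 1.39, against -0.01 over all genes tested.

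Tmem173, the adaptor on which cGAMP acts, had 34.6, 31.6 and 32.6 CPM in the untreated WT libraries and 252, 260 and 242 CPM with IFNγ. The groups lay far apart, with a log2 fold change of 2.93 ± 0.24 (SE) and an adjusted p of 9.5e-06. Samhd1 had 186, 232 and 184 CPM untreated and 1842, 2393 and 1998 CPM with IFNγ. This was the largest change of a member, at a log2 fold change of 3.37 ± 0.22 (adjusted p = 2.5e-06). Of the kinases, Ikbke rose from 69.5, 67.1 and 67.3 CPM to 167, 239 and 188 CPM, and Tbk1 from 75.2, 74.0 and 69.8 CPM to 134, 141 and 113 CPM. The increase of Ikbke (log2 fold change 1.54 ± 0.18, adjusted p = 8.5e-05) had a larger point estimate than that of Tbk1 (0.82 ± 0.20, adjusted p = 0.0090), and the difference between the kinases was not tested. Aim2 had 35.5, 31.3 and 31.5 CPM untreated and 79.8, 78.7 and 72.9 CPM with IFNγ (log2 fold change 1.23 ± 0.16, adjusted p = 0.00024). Enpp1, the hydrolase of cGAMP, went the other way, from 27.2, 25.9 and 22.1 CPM to 8.79, 4.46 and 6.14 CPM. Its log2 fold change was -1.94 ± 0.22 (adjusted p = 8.7e-05), and the WT groups did not overlap for any of the 6 members. The share of all genes without such overlap was not counted.

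In cKO BMDMs IFNγ changed the same 6 members in the same directions, and here 33.6% of all genes tested were called (17.2% higher). The 2 untreated libraries had 42.3 and 54.3 CPM of Tmem173 and those with IFNγ 135 and 276 CPM, and the lower of the latter was the library with the fewest counts, cKO replicate 1. Of its reads 57.1% were unmapped, against 12.6% to 18.4% in the other day 8 libraries, and its chi-square per degree of freedom over genes with the other IFNγ cKO library, 292, was the largest of any pair within a group. The part of this in the cKO values was not tested. Its log2 fold change was 2.10 ± 0.29 (adjusted p = 0.00041). Samhd1 went from 305 and 298 CPM to 1872 and 3025 CPM, a log2 fold change of 3.02 ± 0.27 (adjusted p = 3.1e-05). Ikbke (1.44 ± 0.22), Aim2 (0.95 ± 0.20), Tbk1 (0.74 ± 0.25) and Enpp1 (-1.21 ± 0.27) had adjusted p of 0.00074, 0.0054, 0.045 and 0.0072. Tbk1 had 91.8 and 175 CPM with IFNγ and lost its call when IFNγ cKO replicate 2 was left out (log2 fold change 0.15, adjusted p = 0.49). Only 3 members (Tmem173, Ikbke and Samhd1) were called when the model held these groups alone. A further 2 cKO libraries of day 8 have titles and library names that disagree on IFNγ and were left out. Placed by library name they kept all 6 calls in either genotype, and placed by title they left 0 calls of members in either. Over all genes the placement by title left 2 calls in WT and 0 in cKO. By title the log2 fold changes of WT were as before (Samhd1 3.37, Tmem173 2.93, Ikbke 1.54), with adjusted p of 0.078 to 0.13 over the 6 members. Those of cKO were then 0.50 for Samhd1 and 0.28 for Tmem173.

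**Figure D1:**
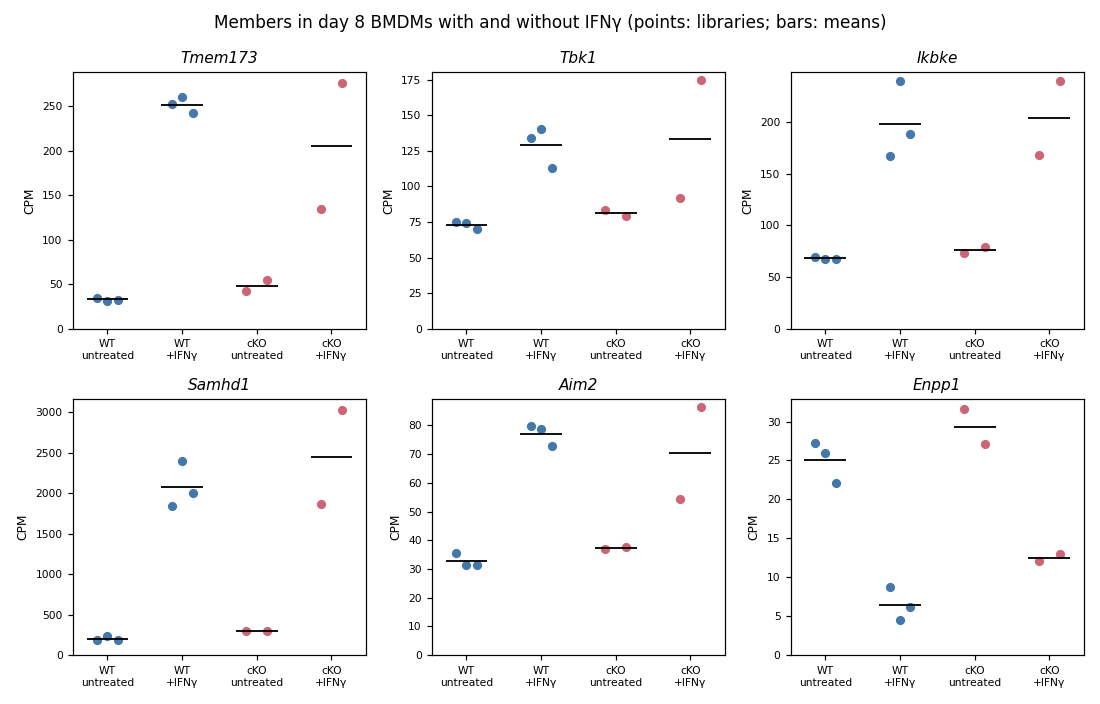
CPM (y axis, from 0) of the 6 measured members in day 8 BMDMs, with WT libraries in blue and cKO libraries in red, untreated or given IFNγ for 12 h. Points are libraries (3 per WT group, 2 per cKO group) and bars are group means, and 5 members lie higher with IFNγ in either genotype while Enpp1 lies lower.

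The response to IFNγ was compared between genotypes with an interaction term. By edgeR it called 0 of the 6 members (and 0% of all genes) and by DESeq2 also 0, while 1, Tmem173, had an unadjusted p under 0.05. For Tmem173 the IFNγ effect in cKO minus that in WT was -0.83 ± 0.36 on the log2 scale (adjusted p = 0.58). Without IFNγ cKO replicate 1 the same term was 0.03 for Aim2, 0.0019 for Samhd1 and 0.33 for Tbk1. Without replicate 2 it was -1.48 for Tmem173, -0.77 for Samhd1, -0.72 for Aim2 and -0.68 for Tbk1. Either fit leaves 1 library in the group and assumes that it varies like the others. Without replicate 2 that library is the one with the fewest counts. With IFNγ present, cKO and WT differed in none of the members by edgeR, where 4.83% of all genes were called (3.2% higher), in 1 by DESeq2 (Enpp1) and in 1 at an unadjusted p under 0.05 (Enpp1). Enpp1 had 12.1 and 13 CPM in cKO and 4.46 to 8.79 CPM in WT (log2 fold change 0.95 ± 0.27, adjusted p = 0.071).

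The wider pathway under IFNγ was read from 68 further genes in lists of DNA sensors, regulators of STING, kinase adaptors, nucleases, cGAMP transporters, partners of AIM2 and output genes, of which 64 were tested. In WT 24 were higher and 13 lower, with a median log2 fold change of 0.25, where 20% of all genes tested were higher and 20.1% lower. All 5 tested genes of the AIM2 inflammasome list rose, among them Casp1 (1.79 ± 0.25), the protease that AIM2 activates, and Gsdmd (1.66 ± 0.13), the pore former it cleaves. Of 14 DNA sensors and cofactors, 2 rose and 5 fell. Those that rose were Zbp1 (5.33 ± 0.28) and Ifi204 (3.33 ± 0.20), sensors that are also interferon-stimulated genes. cGAS (listed as Mb21d1) had a log2 fold change of 0.52 ± 0.21 in WT (adjusted p = 0.071) and of 0.78 ± 0.26 in cKO (adjusted p = 0.041). Of 14 regulators of STING, 3 rose and 4 fell, and the largest change was the fall of Nlrc3, a negative regulator (-2.32 ± 0.25). Of 7 cGAMP transporters, 1 rose and 4 fell, led by the exporter Abcc1 (-1.60 ± 0.19). Of 9 kinase adaptors and transcription factors 6 rose, among them Azi2 (1.46 ± 0.14), an adaptor of TBK1, while Irf3 did not pass the test (0.28 in WT). The adjusted p of each gene named here as risen or fallen was at most 0.00029.

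During culture of bone marrow cells, the comparison of cKO with WT asks at which day the loss of H3.3 is seen in these genes. On day 3 the cKO had more RNA of Tmem173, Samhd1 and Aim2, which were the 3 members called, against 7.73% of the 15955 genes tested (5.19% higher). Samhd1 had 184, 173 and 166 CPM in WT and 416, 333 and 410 CPM in cKO (log2 fold change 1.15 ± 0.31, adjusted p = 0.034). Tmem173 had 36.3, 32.1 and 25.7 CPM in WT and 69.2, 50.1 and 61.4 CPM in cKO (0.94 ± 0.25, adjusted p = 0.029). For Aim2 it was 28.8, 26.0 and 29.0 CPM against 45.9, 45.6 and 51.3 CPM (0.77 ± 0.11, adjusted p = 0.00069). No library of cKO overlapped with WT in these 3 genes.

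The other members of day 3 did not pass the test. Enpp1 had 25.2, 22.0 and 11.7 CPM in WT and 16.2, 9.65 and 9.51 CPM in cKO, with overlapping groups (log2 fold change -0.73 ± 0.24, adjusted p = 0.075), and DESeq2 called it. Ikbke had 150, 93.4 and 106 CPM in WT and 213, 127 and 151 CPM in cKO. Replicate 1 was the highest in either genotype, and with the replicate number as a block Ikbke was called on day 3 at a log2 fold change of 0.49 and an adjusted p of 0.012, where without it the adjusted p was 0.25. Tbk1 had 94.0, 78.5 and 80.9 CPM in WT and 92.7, 87.4 and 101 CPM in cKO. Aim2 kept its call with each of the 6 libraries left out, whereas Tmem173 lost it in 5 of these fits and Samhd1 in all 6, with adjusted p up to 0.12.

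Other cell types moved along with genotype on day 3. The summed level of 5 markers of B cells was 11.6 to 12.7 CPM in WT and 24.9 to 52.9 CPM in cKO, with 3 of the 5 called higher, and that of 6 neutrophil markers was 1021 to 2009 CPM in WT and 1764 to 2681 CPM in cKO, with none called. The part of these cells in the values of Tmem173, Samhd1 and Aim2 was not tested. In such bulk samples a change in the number of cells of a type cannot be told apart from a change in RNA per cell. The summed level of 20 canonical interferon genes, none of them a member, was 126 to 158 CPM in WT and 2980 to 3986 CPM in cKO on day 3.

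On day 5 only Aim2 was called, where 2.83% of all genes were (2.2% higher), with 34.8, 32.3 and 28.2 CPM in WT and 50.4, 40.2 and 39.2 CPM in cKO (log2 fold change 0.45 ± 0.11, adjusted p = 0.042). One library stood apart in the cKO group. Its Samhd1 was 698 CPM, against 275 and 300 CPM in the other cKO libraries and 235, 165 and 177 CPM in WT, and its Tmem173 was 102 CPM against 47.8 and 56.1 CPM. The same library had 7425 CPM of the summed interferon genes against 1414 and 1699 CPM. Samhd1 had a log2 fold change of 1.14 ± 0.31 (adjusted p = 0.067) and no overlap between groups. Without this library, cKO replicate 1, 0 members were called on day 5, as without WT replicate 2 or 3, while 3 were called without cKO replicate 2 and 2 without cKO replicate 3. Without cKO replicate 1 the log2 fold change of Samhd1 was 0.59 (adjusted p = 0.49), and that of Tmem173 went from 0.75 to 0.35.

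By day 7, where 1.4% of all genes were called (0.871% higher), edgeR called 0 members and DESeq2 0, and Aim2 was the one with an unadjusted p under 0.05. It had 34.0, 35.1 and 35.1 CPM in WT and 41.2, 44.9 and 43.7 CPM in cKO, so that the groups did not overlap at a log2 fold change of 0.32 ± 0.11 (adjusted p = 0.16). Tmem173 had 47.9, 69.7 and 52.2 CPM in WT and 73.6, 69.0 and 71.0 CPM in cKO. Samhd1 had 508, 433 and 245 CPM in WT and 526, 362 and 400 CPM in cKO, which partly overlap. Between day 3 and day 7 Samhd1 rose in WT (log2 fold change 1.18 ± 0.31, adjusted p = 0.014), as did Tmem173 (0.85 ± 0.25, adjusted p = 0.023), where 23.9% of all genes were called. The libraries of WT day 3 and day 7 did not overlap in either, but between 0 and 3 members were called when 1 library was left out. Neutrophil markers of WT went from a sum of 1021 to 2009 CPM on day 3 to 51.6 to 97.2 CPM on day 7. The summed interferon genes of WT went from 126 to 158 CPM to 3717, 1295 and 950 CPM in replicates 1, 2 and 3, and the part of either in these values was not tested.

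In cKO the change from day 3 to day 7 was 0.15 ± 0.31 for Samhd1 and 0.24 ± 0.25 for Tmem173, and neither passed the test. Enpp1 was the only member called there, where 14% of all genes were (6.32% higher), with 16.2, 9.65 and 9.51 CPM on day 3 and 25.2, 23.1 and 23.2 CPM on day 7 (1.02 ± 0.24, adjusted p = 0.011), and without cKO day 3 replicate 2 it missed the threshold (adjusted p = 0.059). The difference of the cKO effect between the days, as an interaction, called 0 members by edgeR (and 0.0439% of all genes) and 0 by DESeq2, though 4 had an unadjusted p under 0.05 (Ikbke, Samhd1, Aim2 and Enpp1). It was -1.03 ± 0.44 for Samhd1 and 1.05 ± 0.34 for Enpp1, with adjusted p of 0.28 and 0.17. With the replicate number as a block the interaction called Ikbke (-0.76, adjusted p = 0.036), whose value without the block was -0.77 (adjusted p = 0.30).

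**Figure D2:**
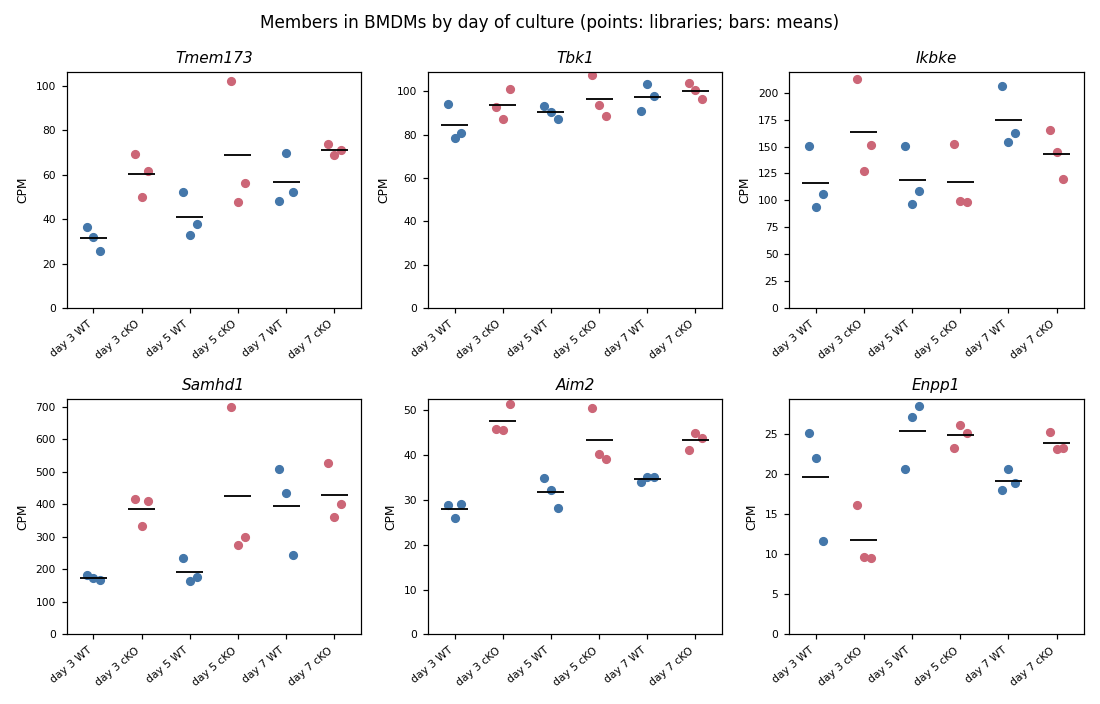
CPM (y axis, from 0) of the 6 measured members in bone marrow cells on days 3, 5 and 7, WT in blue and cKO in red. Points are libraries (3 per group) and bars are group means, and the WT means of Samhd1 and Tmem173 are lowest on day 3. On day 7 libraries of WT and cKO overlap in both. For Tmem173 these are 47.9, 69.7 and 52.2 CPM in WT and 69.0 to 73.6 CPM in cKO.

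Among the 67 tested genes of the wider pathway, 12 were higher and 1 lower in cKO on day 3, where 5.19% of all genes were higher and 2.54% lower. Among those with large changes were interferon-stimulated genes, such as the sensors Zbp1 (6.0 ± 1.13, from a WT mean of 1.18 CPM to 75.4 CPM) and Ifi204 (4.45 ± 0.60, from 6.37 to 138 CPM) and the editing enzyme Adar (1.81 ± 0.23). Ifnb1, which encodes interferon-β, was also called (5.77 ± 1.59, adjusted p = 0.035), with 0 to 0.0682 CPM in WT and 0.836 to 2.77 CPM in cKO. So low a WT level leaves the size of that change poorly determined. On days 5 and 7 Ifnb1 did not pass the test (adjusted p of 0.30 and 0.50), and it was not tested in the other experiments. cGAS (Mb21d1) had 22.9 ± 3.26 CPM (SD, n = 3) in WT, against 32.7 ± 5.13 CPM in cKO, and did not pass the test (adjusted p = 0.33). Irf3 had an adjusted p of 0.47. The gene that fell was Pld3, a lysosomal exonuclease (-0.78 ± 0.20, adjusted p = 0.025).

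In untreated BMDMs of day 8, where 0.612% of all genes differed between cKO and WT, edgeR and DESeq2 each called 0 members, and 1, Samhd1, had an unadjusted p under 0.05. The libraries of cKO lay above those of WT for 5 of the 6 members. How many of all genes lay so was not counted, and the groups hold only 2 and 3 libraries. Samhd1 had 305 and 298 CPM in cKO against 186, 232 and 184 CPM (log2 fold change 0.59 ± 0.22, adjusted p = 0.63) and Tmem173 had 42.3 and 54.3 CPM against 34.6, 31.6 and 32.6 CPM (0.55 ± 0.25, adjusted p = 0.81). In peritoneal macrophages 0.971% of all genes were called and 0 members by either tool, while 2 (Ikbke and Aim2) had an unadjusted p under 0.05. There Aim2 had 16.4, 31.0 and 39.4 CPM in WT and 45.5, 50.7 and 43.8 CPM in cKO (0.68 ± 0.29, adjusted p = 0.51). Ikbke had 85.4, 71.2 and 106 CPM in WT and 128, 102 and 131 CPM in cKO. Tmem173 had 44.6, 67.4 and 38.1 CPM in WT, which span the 46.6, 46.1 and 45.4 CPM of cKO. Samhd1 had 283, 278 and 208 CPM in WT and 299, 257 and 329 CPM in cKO. The peritoneal libraries also carried T and NK cell markers, at a sum of 4.37 to 23.8 CPM in WT and 8.24 to 33.1 CPM in cKO.

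The antibody experiment asks whether the differences between cKO and WT depend on signals through IFNAR1. Without antibody Samhd1 was the only member called, where 7.1% of 17191 genes were (3.39% higher). It had 113, 63.7 and 74.2 CPM in WT and 197, 176 and 135 CPM in cKO (log2 fold change 1.02 ± 0.18, adjusted p = 0.0038), and it kept its call in each alternative run. Tmem173 had 36.1, 12.9 and 15.7 CPM in WT and 45.7, 49.3 and 42.6 CPM in cKO (1.09 ± 0.34, adjusted p = 0.062). DESeq2 called it, as did edgeR with no filter on low counts (adjusted p = 0.028) and without WT replicate 1, the highest of its group (1.68, adjusted p = 0.0031).

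With control antibody edgeR called 0 members, where 4.45% of all genes were called (2.88% higher), and DESeq2 0, while 2 (Samhd1 and Enpp1) had an unadjusted p under 0.05. The groups did not overlap for 5 of the 6 members, all higher in cKO, but the share of all genes without overlap was not counted. Samhd1 had 93.8, 90.2 and 89.7 CPM in WT and 140, 136 and 116 CPM in cKO (0.52 ± 0.18, adjusted p = 0.13). Fitted with these 2 groups alone, 4 members were called, as were 3384 genes in all, against 765 in the fit of the whole experiment. With the IFNAR1 antibody 0 were called by either tool, where 0.675% of all genes were called, and 2 (Tmem173 and Samhd1) had an unadjusted p under 0.05. Samhd1 then had 76.6, 83.8 and 89.9 CPM in WT and 105, 118 and 111 CPM in cKO, still without overlap (0.42 ± 0.18, adjusted p = 0.38). Tmem173 had 17.8, 16.4 and 30.6 CPM in WT and 22.9, 42.5 and 44.3 CPM in cKO (0.76 ± 0.34, adjusted p = 0.40). The cKO effect under IFNAR1 antibody was set against that under control antibody as an interaction, which called 0 members by edgeR (and 0% of all genes) and by DESeq2 and had 0 at an unadjusted p under 0.05. For Samhd1 the difference was -0.10 ± 0.25 on the log2 scale. The summed interferon genes were 177 to 361 CPM in WT and 849 to 2170 CPM in cKO without antibody. They were 133.5 to 145.3 CPM and 692 to 1116 CPM under control antibody. Under IFNAR1 antibody they were 102 to 128 CPM and 348 to 570 CPM, so that cKO still lay above WT.

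Between the antibodies themselves Aim2 and Enpp1 were the members that changed in WT, where 9.89% of all genes were called (6.83% higher). Enpp1 had 28.5, 27.4 and 32.0 CPM with control antibody and 56.5, 67.8 and 34.0 CPM with IFNAR1 antibody (log2 fold change 0.85 ± 0.19, adjusted p = 0.014). Aim2 had 26.1, 29.3 and 30.2 CPM with control antibody and 74.7, 74.8 and 31.5 CPM with IFNAR1 antibody (1.08 ± 0.31, adjusted p = 0.042). Replicate 3 of WT with IFNAR1 antibody lay near the control group for both genes. Each call was lost when the model held these groups alone. Without this library both calls held (Aim2 1.39, Enpp1 1.08), and without any other single library 0 or 1 member was called.

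In cKO the same contrast called 0 members by edgeR and by DESeq2, where 4.03% of all genes were called (2.34% higher), and 2 (Ikbke and Enpp1) had an unadjusted p under 0.05. Aim2 had 44.6, 45.0 and 42.5 CPM with control antibody and 92.2, 39.4 and 41.8 CPM with IFNAR1 antibody, so that 1 library carried the rise. Enpp1 had 45.6, 34.9 and 43.4 CPM and then 67.9, 53.7 and 56.4 CPM (0.52 ± 0.19, adjusted p = 0.14). Control antibody itself went with a change of Enpp1 in WT, from 46.5, 54.0 and 52.0 CPM without antibody to the 28.5, 27.4 and 32.0 CPM given above (-0.80 ± 0.19, adjusted p = 0.022), where 8.9% of all genes were called (3.27% higher). That call was lost in 5 of the 6 fits that left out 1 library. In cKO the contrast of control with no antibody called 0 members by either tool, where 1.46% of all genes were called (0.663% higher), and 0 had an unadjusted p under 0.05. The summed level of 5 stromal markers in WT was 15.6 to 251 CPM under control antibody, 6.59 to 126 CPM under IFNAR1 antibody and 14.4 to 110 CPM in the arm that had none, and their part in these values was not tested.

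**Figure D3:**
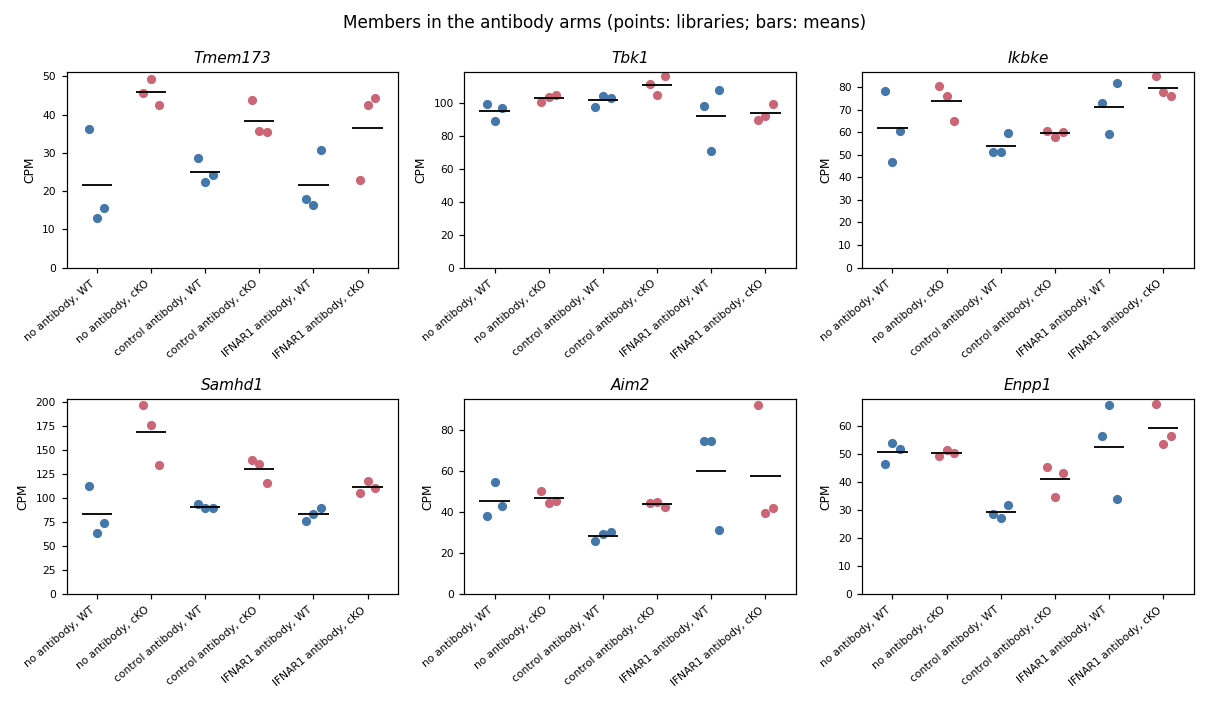
CPM (y axis, from 0) of the 6 measured members in BMDMs of the 3 antibody arms, WT in blue and cKO in red. Points are libraries (3 per group) and bars are group means, and Samhd1 of cKO lies above WT in each arm while Aim2 under IFNAR1 antibody spreads from 31.5 to 92.2 CPM over libraries.

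cGAS (Mb21d1) also changed between the antibodies in WT (log2 fold change 1.42 ± 0.42, adjusted p = 0.044), from 6.97 ± 1.44 CPM with control antibody to 18.7 ± 8.2 CPM with IFNAR1 antibody (SD, n = 3). In cKO it had 7.83 ± 0.808 and 14.2 ± 10.4 CPM (adjusted p = 0.27). The sensor Ifi204 fell in cKO with the IFNAR1 antibody, from 84.0 ± 12.8 to 32.9 ± 6.63 CPM (-1.35 ± 0.28, adjusted p = 0.019). Of the 66 tested genes of the wider pathway, 5 were higher and 2 lower in WT, and 3 higher and 4 lower in cKO. Of all genes 6.83% were higher and 3.06% lower in WT, and 2.34% higher and 1.69% lower in cKO.

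BMDMs of the 3 sets were the most deeply sequenced, with 21504555 to 45581528 counts per library. The libraries of sets 1 and 3 were closer to each other than to set 2. Between WT libraries of sets 1 and 3 the chi-square per degree of freedom over genes was 14.4 to 88.5, and between those sets and set 2 it was 122 to 245. In WT, libraries of sets 1 and 3 with the same number also deviated together from their group means (correlation across genes 0.14 to 0.39), and whether they are independent cultures is not in the labels. Libraries of set 3 and Irf7KO list 54146 genes, and those of sets 1 and 2, StingKO and MavsKO list 55536. The fit held only genes that all of these libraries list. In the mean of the 3 sets 5 members differed between cKO and WT, against 47.4% of the 18083 genes tested. Tmem173 (log2 fold change 0.44 ± 0.06), Samhd1 (0.35 ± 0.08), Aim2 (0.27 ± 0.05) and Tbk1 (0.09 ± 0.03) were higher, and Ikbke was lower (-0.41 ± 0.09), with adjusted p of 1.7e-06, 0.0012, 5.3e-05, 0.026 and 0.00054. The call of Tbk1 was lost in 8 of its alternatives, with no filter on low counts (adjusted p = 0.12), with the larger strand column (0.074), with only the groups compared (0.064), with sets 2 and 3 only, and without 1 of 4 libraries (0.052 to 0.071).

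Set by set the members differed in which were called. Set 2 had 3 called members, where 21% of all genes were called. Tmem173 had 42.7, 44.4 and 42.9 CPM in WT and 76.4, 74.4 and 77.2 CPM in cKO (0.81 ± 0.10, adjusted p = 3.0e-06). Aim2 had 21.4, 21.0 and 23.9 CPM in WT and 33.0, 32.7 and 31.1 CPM in cKO (0.55 ± 0.08, adjusted p = 2.9e-05). Samhd1 had 290, 314 and 297 CPM in WT and 434, 487 and 397 CPM in cKO (0.55 ± 0.15, adjusted p = 0.0077). The groups of set 2 did not overlap in these 3 genes, and each kept its call in every alternative run.

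In set 1, where 34.7% of all genes were called, Ikbke was the called member, with 118, 84.4 and 108 CPM in WT and 80.0, 67.1 and 79.5 CPM in cKO (-0.45 ± 0.16, adjusted p = 0.027). In set 3, where 34.9% were called, it was again Ikbke, with 131, 80.2 and 87.8 CPM in WT and 78.6, 60.7 and 66.2 CPM in cKO (-0.54 ± 0.16, adjusted p = 0.0084). Without WT replicate 1 its log2 fold change was -0.34 in set 1 and -0.29 in set 3, each with an adjusted p of 0.12, and in set 1 the call was also lost without WT replicate 3 (-0.42) or cKO replicate 2 (-0.37). The same gene had 80.0, 71.8 and 80.5 CPM in WT and 62.1, 71.7 and 63.5 CPM in cKO of set 2 (-0.24 ± 0.16, adjusted p = 0.33), so that Ikbke of cKO lay below WT in each of the 3 sets.

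Tmem173 had smaller changes in the other sets. It had 77.8, 65.5 and 77.5 CPM in WT of set 1 and 85.9, 86.7 and 91.7 CPM in cKO (0.26 ± 0.10, adjusted p = 0.054). In set 3 it had 67.7, 56.3 and 59.0 CPM in WT and 68.2, 76.4 and 71.4 CPM in cKO (0.24 ± 0.10, adjusted p = 0.080), with a gap of under 1 CPM between the groups. With sets 1 and 2 only the mean difference called the same count of 5 members, and with sets 2 and 3 only it called 4, since Tbk1 was lost (0.07, adjusted p = 0.20).

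Markers of dendritic cells were higher in cKO in each set, with 4 of 5 called, and summed to at most 6.07 CPM in WT and at most 15.6 CPM in cKO. Neutrophil markers summed to 41.6 to 84.3 CPM in WT and 104 to 168 CPM in cKO of set 1, to 72.2 to 116 CPM and 93.1 to 107 CPM in set 2, and to 50.2 to 86.3 CPM and 111 to 191 CPM in set 3. B cell markers were low but higher in cKO in each set, with 2.56 to 6.85 CPM in WT and 7.60 to 10 CPM in cKO of set 1, 3.97 to 5.57 CPM and 11.8 to 14.2 CPM in set 2, and 2.73 to 5.23 CPM and 5.71 to 12.1 CPM in set 3. The part of these cells in the values of the members was not tested.

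**Figure D4:**
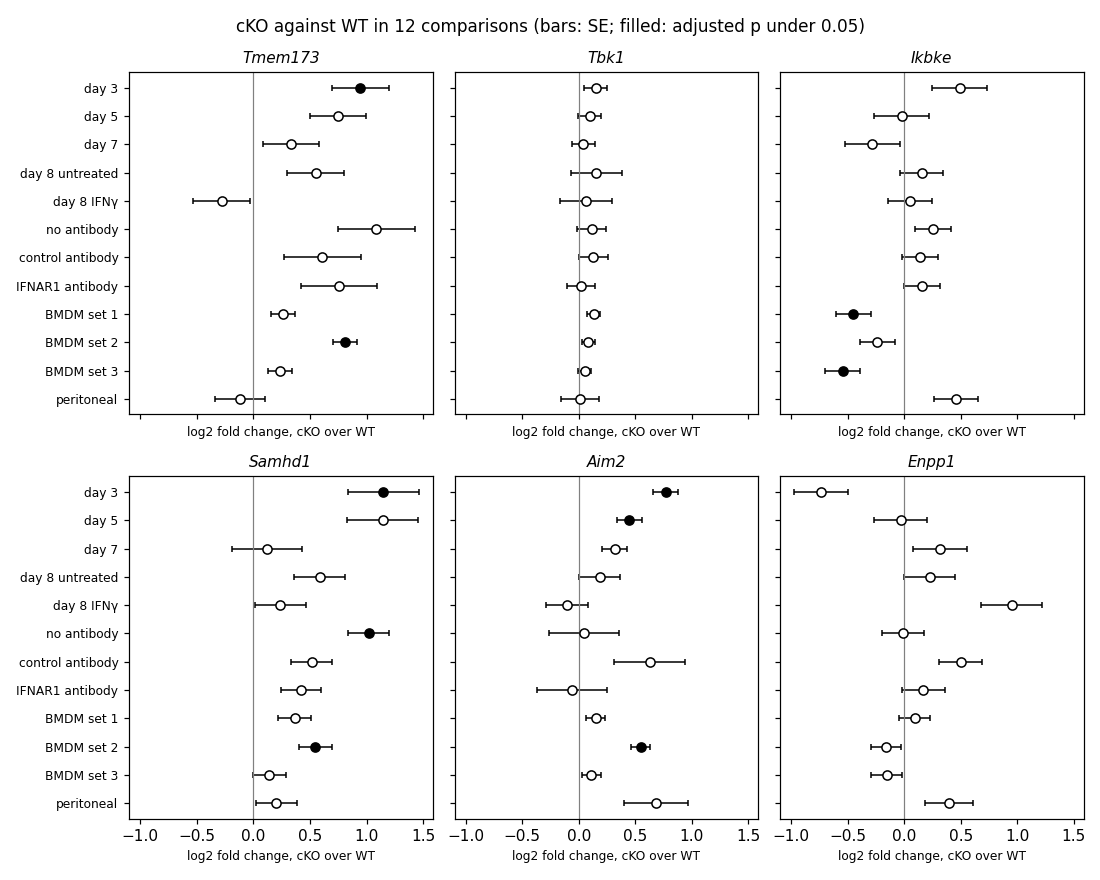
Log2 fold change of cKO over WT (x axis) of the 6 measured members in 12 comparisons (y axis), with the SE as bars and filled points at an adjusted p under 0.05. Tmem173 and Samhd1 lie right of 0 in most comparisons, Tbk1 stays near 0, and Ikbke lies left of 0 in the 3 BMDM sets.

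StingKO libraries carry the targeted member itself. Tmem173 had 6.10, 5.01 and 5.44 CPM in StingKO cKO, against 68.2 to 91.7 CPM over the cKO libraries of the 3 sets (log2 fold change -3.83 ± 0.11, adjusted p = 2.5e-17). Irf7 had 98.3 to 112 CPM in Irf7KO against 249 to 470 CPM in cKO, and Mavs had 37.2 to 37.9 CPM in the libraries labelled MavsKO against 36.0 to 51.6 CPM in cKO (-0.26 ± 0.06, adjusted p = 0.0044), which left 37.5 CPM on average. The labels do not give the part of the gene that these alleles lack, so counts over the whole gene may include reads outside it. In Irf7KO cKO, H3f3a (-0.91 ± 0.13, adjusted p = 4.7e-05) and H3f3b (-0.73 ± 0.14, adjusted p = 0.0015) were also lower than in cKO, and what goes with this cannot be told apart from the loss of Irf7.

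Other cell types differed between the double KOs and cKO. Stromal markers summed to 181 to 226 CPM in StingKO, 92.6 to 331 CPM in MavsKO and 34.1 to 54.5 CPM in Irf7KO, against 26.6 to 80 CPM over the cKO libraries of the 3 sets. Neutrophil markers summed to 148 to 171 CPM in StingKO, 33.9 to 70.2 CPM in MavsKO and 54.3 to 74.2 CPM in Irf7KO, against 93.1 to 191 CPM in cKO. Their part in the values of the members was not tested.

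The comparison of the double KOs with cKO asks which differences of cKO need STING, MAVS or IRF7. Beside Tmem173, the members Tbk1, Ikbke and Enpp1 differed between StingKO cKO and the mean of the cKO sets, so that 4 members were called where 36.1% of all genes were. No group lacked Sting, Mavs or Irf7 without the cKO alleles. Tbk1, the kinase that STING recruits, had 78.0, 80.8 and 81.0 CPM in StingKO cKO, below each of the 9 cKO libraries at 91.8 to 106 CPM (log2 fold change -0.28 ± 0.05, adjusted p = 7.7e-05). Ikbke had 111, 95.9 and 97.0 CPM, above each cKO library at 60.7 to 80.0 CPM (0.54 ± 0.12, adjusted p = 0.0015). Enpp1 had 26.6, 31.1 and 28.3 CPM and overlapped with cKO at 16.7 to 28.6 CPM (0.44 ± 0.11, adjusted p = 0.0023). Set against set 1 alone the calls of Ikbke (0.42, adjusted p = 0.051) and Enpp1 (0.30, adjusted p = 0.11) were lost.

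Samhd1, called higher in cKO than in WT, did not pass the test between StingKO cKO and cKO. It had 405, 475 and 446 CPM there, against 325 to 487 CPM in cKO (0.22 ± 0.12, adjusted p = 0.15) and 218 to 391 CPM in WT (0.57 ± 0.11, adjusted p = 0.00029). Aim2 had 37.9, 40.5 and 40.7 CPM, with a log2 fold change of 0.03 ± 0.07 against cKO and of 0.30 ± 0.07 against WT (adjusted p = 0.0010), which turned to -0.02 against set 3 alone. Compared with WT, 5 members were called in StingKO cKO where 40.3% of all genes were called: Samhd1, Aim2 and Enpp1 higher, Tbk1 and Tmem173 lower. The comparisons with cKO and with WT share the StingKO libraries. The summed interferon genes were 3424 to 4203 CPM in StingKO cKO and 2116 to 3335 CPM in cKO.

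With MavsKO 1 member was called against cKO, where 8.79% of all genes were called. This was Aim2, with 28.3, 34.3 and 30.4 CPM (-0.33 ± 0.07, adjusted p = 0.0028). The cKO libraries of set 2 had 31.1 to 33.0 CPM of Aim2 and those of sets 1 and 3 had 40.2 to 44.5 CPM, and against set 2 alone the log2 fold change was -0.06. Samhd1 had 442, 413 and 388 CPM and Tmem173 80.7, 73.8 and 75.1 CPM in the MavsKO libraries, with log2 fold changes of 0.13 ± 0.12 and -0.04 ± 0.08 against cKO that did not pass the test. Against WT 4 members were called, where 42.6% of all genes were called. Samhd1 (0.48), Tmem173 (0.40) and Tbk1 (0.15) were higher and Ikbke (-0.55) was lower. Samhd1 kept its call against each set alone. Tmem173 lost it against set 1 alone (0.057, adjusted p = 0.69) and Ikbke against set 2 alone (-0.29, adjusted p = 0.21). Tbk1 lost it against set 2 or set 3 alone, with no filter and with the larger strand column, at adjusted p of 0.059 to 0.19.

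With Irf7KO 2 members were called against cKO, where 9.85% of all genes were called. Tmem173 had 45.8, 62.6 and 68.1 CPM, below each cKO library (-0.41 ± 0.09, adjusted p = 0.0031), and Ikbke had 118, 88.4 and 78.5 CPM (0.44 ± 0.12, adjusted p = 0.024). Replicate 1 was the lowest for Tmem173 and the highest for Ikbke, and without it the log2 fold changes were -0.26 (adjusted p = 0.051) and 0.26 (adjusted p = 0.32). Neither was called against set 3 alone, at adjusted p of 0.22 and 0.17. Samhd1 had 428, 347 and 360 CPM in Irf7KO cKO (-0.0040 ± 0.12 against cKO, 0.35 ± 0.12 against WT with an adjusted p of 0.025). Against WT 2 members, Samhd1 and Aim2, were called, where 31.5% of all genes were called. Aim2 was not called against set 1 alone (0.13, adjusted p = 0.25) or set 3 alone (0.050, adjusted p = 0.69). Samhd1 lost its call against set 2 or set 3 alone (adjusted p of 0.079 and 0.11), without Irf7KO replicate 1 (0.25, adjusted p = 0.19) and with only the groups compared (adjusted p = 0.081).

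**Figure D5:**
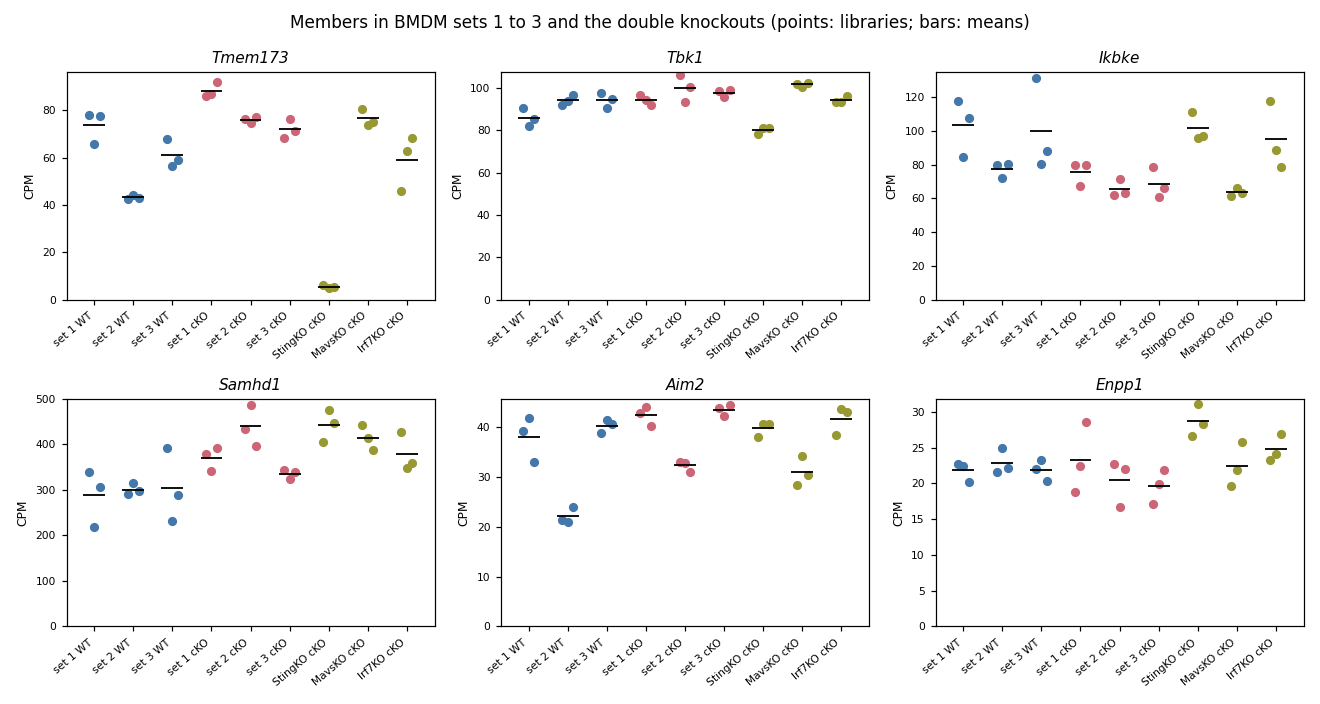
CPM (y axis, from 0) of the 6 measured members in BMDM sets 1 to 3, WT in blue and cKO in red, and in the double KOs in olive. Points are libraries (3 per group) and bars are group means, and Tmem173 is near 5 CPM in StingKO cKO while Samhd1 stays in the range of cKO in each double KO.

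In the wider pathway cGAS (Mb21d1) was higher in cKO in each set, with log2 fold changes of 1.19 ± 0.12, 0.44 ± 0.12 and 1.22 ± 0.12 in sets 1, 2 and 3 (adjusted p of 8.9e-08, 0.0082 and 6.0e-08), and lower in StingKO cKO than in cKO (-0.34 ± 0.10, adjusted p = 0.0098). In the mean of the sets 29 of 66 tested genes of the wider pathway were higher and 16 lower, where 22.7% of all genes were higher and 24.7% lower. The regulator Insig1 fell most (-1.92 ± 0.12), and Nlrc3 rose (0.82 ± 0.06), each with an adjusted p of 2.9e-11 or less. Of 14 DNA sensors and cofactors, 8 were lower in StingKO cKO than in cKO and 2 were higher, among them Prkdc (-0.52 ± 0.09), Dhx9 (-0.52 ± 0.09) and Zbp1 (1.15 ± 0.20). In this comparison 17.2% of all genes were lower and 18.9% higher. Irf3 was higher in StingKO cKO (0.26 on the log2 scale), and the output genes Isg15 (1.12 ± 0.16) and Irf7 (1.08 ± 0.20) were higher than in cKO as well.

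For each member the genes with the most similar pattern over the 27 group means were found among 11170 genes tested in all 5 experiments, as the smallest root mean square difference of log2 CPM centred within each experiment. Themis2 and 4933412E12Rik came closest to Samhd1 (0.16 and 0.18, where Samhd1 itself deviates by 0.70), and Slc37a3 and Pik3cd to Ikbke (0.15 each, of 0.36). For Tbk1 they were Mta3 and Ep400 (0.09 each, of 0.16), for Aim2 Azin2 and Pan2 (0.21 each, of 0.35), and for Enpp1 Lsm11 (0.23, of 0.42). Tmem173 had no close neighbour, since Rab39 and Zup1 differed from it by 0.65 and 0.69 where its own deviation was 0.88, and its pattern holds the StingKO group. These groups share libraries of 5 experiments, and the values are descriptions.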

How the data were processed

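RNA-seq libraries were made from mouse BMDMs, their progenitors and peritoneal macrophages. Those of BMDMs and progenitors were depleted of ribosomal RNA. For the peritoneal libraries the labels give the same kits, while the methods of the study give an amplifying SMART-Seq kit for low input. Per the labels and the methods of the study, the authors trimmed reads with Cutadapt and aligned them to mm10 with STAR, and the deposited files hold the raw read counts per gene that STAR writes. The versions used are not given in the sources used here. The column of counts without regard to strand was used, since both strand columns held about equal shares. Rows that name no gene were left out of library sizes. A read over exons of several genes is not counted by STAR.

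Counts were tested with edgeR 4.0.16 (quasi-likelihood, TMM) in R 4.3.3, with filterByExpr at a count of 10 and a total of 15, 1 model per experiment holding all its groups, and Benjamini-Hochberg adjustment. SE is the log2 fold change over the square root of F. Adjusted p-values throughout are from this test. Double KOs were compared with the mean of the 3 sets. The script was tested on simulated data. Depth was 3614967 to 45581528 counts, and a low depth widens the counting error of the lower members. Alternatives were DESeq2 1.42.0, RLE scaling, no filter on low counts, the larger strand column, the replicate number as a block, only the groups compared, each set alone, placing the 2 conflicting libraries, and leaving out each library.

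Samples were grouped by title. The 2 day 8 cKO libraries with conflicting names entered no group. Same-numbered libraries counted as paired where each pair's deviations from the group means correlated over 0.1 across genes. The main test held no term for this pairing, and the replicate number entered only as an alternative. The rule was met between cKO and WT on day 3 (0.126 to 0.419), on day 7 and in peritoneal macrophages. It was also met between days in cKO, and in WT for IFNγ and for control against no antibody. The members and gene lists were chosen with earlier results of these data known. Genes of the wider pathway were named from the 3 called with the largest change in each list and comparison among those with groups that did not overlap, and cGAS, Irf3 and Ifnb1 could always be named. The 2 genes most like each member were named, except 1 that is not reported here. No comparison columns of the authors were used.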

Additional observations from a re-analysis of the deposited data

Results flagged for a closer look

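Ikbke was flagged because its cKO libraries all lay on one side of WT in some BMDM experiments and on the other side in others. Its log2 fold change of cKO over WT was 0.15 in untreated BMDMs of day 8, with both cKO libraries above WT, and -0.45, -0.24 and -0.54 in sets 1, 2 and 3, with each cKO library below WT. The difference between day 8 and the sets was not tested. Day 8 was normalized and fitted apart from the sets, which shared 1 model.

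The 2 day 8 cKO libraries that entered no group were flagged because members lay above every untreated WT library. The library titled with IFNγ, whose library name lacks it, had 46.3 CPM of Tmem173, 81.0 CPM of Tbk1, 255 CPM of Samhd1 and 38.2 CPM of Aim2. The library titled without IFNγ, whose library name holds it, had 283 CPM of Tmem173, 174 CPM of Tbk1, 224 CPM of Ikbke, 3068 CPM of Samhd1 and 82.2 CPM of Aim2. Their Enpp1, in the same order, was 23.4 and 11.6 CPM. The placed untreated cKO libraries had 42.3 to 54.3 CPM of Tmem173, 298 to 305 CPM of Samhd1 and 27.1 to 31.6 CPM of Enpp1. Those placed with IFNγ had 135 to 276 CPM of Tmem173, 1872 to 3025 CPM of Samhd1 and 12.1 to 13 CPM of Enpp1. In Tmem173, Samhd1 and Enpp1 each of these libraries lay nearer the placed cKO libraries of its library name than those of its title. Which label is right was not tested. No group held 4 or more libraries, so single libraries were not screened as outliers.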

How the results depend on the processing

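Of 180 pairs of member and comparison, 51 were called, and 84 were called there or under an alternative. Of 1341 refits of these 84 pairs, 1156 kept direction and side of the threshold, 99 lost the call, 60 gained one and 26 changed sign. Causes were not tested.

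Counts of members called moved as follows. With DESeq2 they were 2 on day 5, 1 between genotypes under IFNγ, 2 without antibody, 4 in set 1 and 2 in set 3. With no filter they were 2, 1, 2, 3 and 2 in the same order. RLE scaling gave 2 in set 3, and the larger strand column gave 0 on day 5 and 1 between genotypes under IFNγ. With only the groups compared they were 0 on day 5, 1 in untreated BMDMs of day 8, 3 for IFNγ in cKO, 4 under control antibody, 0 for IFNAR1 against control antibody in WT, 2 for control against no antibody in WT, 0 in set 3 and 1 for Irf7KO against WT. Under control antibody the fit of only these groups called 3384 genes in all. Placing the conflicting libraries by title gave 0 for IFNγ in either genotype, and by library name 1 between genotypes under IFNγ. By title, 2 genes in all were called for IFNγ in WT and 0 in cKO. Against single sets, StingKO had 2 against cKO and 3 against WT of set 1, MavsKO 0 against cKO of set 2, and Irf7KO 1 against cKO of set 1, 0 against cKO of set 3 and 0 against WT of set 3.

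With the replicate number as a block the counts were 2 on day 5 (Samhd1 gained, 1.07), 1 for the cKO effect of day 7 against day 3 (Ikbke, -0.76) and 2 in set 1 (Samhd1 gained, 0.37). The numbers pair neither day 5 nor set 1. For day 7 against day 3, same-numbered cKO and WT libraries correlated over 0.1 within both days, and between days this held in cKO but not in WT. The block also called Ikbke on day 3 and for day 7 against day 3 in WT (0.60), removed Tbk1 for IFNγ in cKO (0.70, adjusted p = 0.076), and changed no other call.

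With each library left out in turn, counts were 1 to 2 on day 3, 0 to 3 on day 5, 0 to 3 for day 7 against day 3 in WT, 0 to 1 for the same in cKO, 0 to 3 between genotypes under IFNγ, 3 to 6 for IFNγ in cKO, 0 to 4 for its interaction, 1 to 2 without antibody, 0 to 2 for IFNAR1 against control antibody in WT, 0 to 1 for control against no antibody in WT, 0 to 3 in set 1, 1 to 2 in set 3, and for Irf7KO 0 to 2 against cKO and 1 to 2 against WT.

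Signs turned in log2 fold changes near 0 or between sets. For Irf7KO against WT, Tmem173 was -0.32 with set 1 and -0.053 with set 3, and -0.095 to 0.17 with a library left out. Aim2 was -0.022 and -0.062 for Irf7KO against cKO of sets 1 and 3, -0.092 and -0.13 for StingKO against the same, -0.019 for StingKO against WT of set 3, and 0.49 for MavsKO against WT of set 2. Ikbke was -0.025 for StingKO against WT of set 1. Between genotypes under IFNγ, Aim2 was 0.035 with the strand column, and Tbk1 was -0.0040 with no filter, -0.027 with the block and -0.16 by title, while the interaction of Tbk1 was 0.045 by library name. With a library left out, the range for MavsKO against WT was -0.14 to 0.0026 for Aim2, and in set 3 it was -0.019 to 0.36 for Samhd1. Between genotypes under IFNγ it was -0.53 to 0.19 for Aim2, -0.52 to 0.46 for Tbk1 and -0.93 to 0.16 for Tmem173, and for the interaction -0.72 to 0.029 for Aim2, -0.77 to 0.0019 for Samhd1 and -0.68 to 0.33 for Tbk1. Depth limits the day 8 cKO group most, with 3614967 counts in 1 of its 2 libraries given IFNγ.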

Other observations

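In peritoneal macrophages 2 of 63 tested genes of the wider pathway were called higher in cKO and 0 lower, and in untreated BMDMs of day 8 4 of 64 were higher and 0 lower. Of all genes 0.591% were higher in the former and 0.505% in the latter. Against cKO, MavsKO had 2 of 66 higher and 2 lower, and Irf7KO 2 higher and 9 lower, among them Irf3 (log2 fold change -0.26 ± 0.08, adjusted p = 0.044). Of all genes 5.55% were higher and 3.24% lower in MavsKO, and 4.36% higher and 5.5% lower in Irf7KO. Against WT, cGAS (Mb21d1) was higher in each double KO, by 0.61 ± 0.10 in StingKO, 1.10 ± 0.09 in MavsKO and 0.84 ± 0.09 in Irf7KO on the log2 scale.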
